A study of Mus musculus with 27 samples.

Results

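The report covers 40 genes of the cell cycle, of 27304 genes in a deposited count table of mouse heart RNA, chosen by symbol from a given list and not by their values. They fall into 13 genes of S phase and DNA replication (Rrm1, Rrm2, Mcm2 to Mcm7, Pcna, Tyms, Ccne1, Ccne2 and E2f1) and 27 genes of mitosis (Mki67, Top2a, Ccnb1, Ccnb2, Ccna2, Cdk1, Aurka, Aurkb, Bub1, Bub1b, Birc5, Plk1, Cdc20, Cenpe, Cenpf, Kif11, Kif20a, Kif23, Kif4, Nusap1, Tpx2, Ube2c, Foxm1, Melk, Prc1, Racgap1 and Anln). All 40 were found, each in a single row, and all 40 passed the filter on low counts in every comparison. The hearts came from male ApoE-/- mice on the C57BL/6J strain, fed a western diet for 4 weeks and sampled 7 days after a myocardial infarction (MI). Mice with chronic kidney disease (CKD) also received adenine, which damages the kidney, in the diet, 0.3% over 10 days followed by 0.15% over 11 days. The MI fell 4 days into this second phase, with 7 days left. Control mice received no adenine. Both diets therefore share the ApoE deletion, the western diet and the infarct, and no uninjured heart was among the samples. Whole pieces of tissue were sequenced, giving 7 CKD infarct libraries, 6 control infarct libraries, 8 CKD remote libraries and 6 control remote libraries. Remote myocardium is heart muscle away from the infarct, and 13 of the 14 mice gave both regions. For mouse 9179, the title of the remote library says CKD and its treatment label says control. It was kept with CKD, as was the infarct library of the same mouse.

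A dividing cell first licenses its replication origins, then copies its DNA in S phase and separates the copies in mitosis. E2F factors drive the genes of G1 and S phase, while the mitotic genes come on later and are held down outside the cycle by a complex that binds CHR (cell cycle genes homology region) elements. In the adult mammalian heart most cardiomyocytes are out of the cycle, and in the first week after an infarct the dividing cells are known to be mainly fibroblasts, endothelial cells and leukocytes. Bulk tissue cannot tell fewer dividing cells from less RNA per dividing cell.

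Library totals ran from 14255456 to 42566498 counts, and the 40 genes together took 0.0116% to 0.0902% of them. Levels are given in CPM, counts relative to library size, scaled with TMM factors over all 27 libraries, and are compared between libraries only, since CPM does not correct for gene length. Cell type markers differed between the labelled regions in most libraries, though not in all. The summed level of 12 cardiomyocyte genes was 31840 to 110980 CPM in CKD infarct, 5229 to 33680 CPM in control infarct, 91278 to 115555 CPM in CKD remote and 51179 to 112113 CPM in control remote libraries. Summed over 10 genes of activated fibroblasts, the CKD infarct library of mouse 9179 had 420 CPM, below the CKD remote range of 481 to 1418 CPM, while the other 6 CKD infarct libraries had 5172 to 27117 CPM. The control remote library of mouse 9180 had 11970 CPM of these genes, against 760 to 3420 CPM in the other 5 control remote libraries. The library labelled CKD infarct of mouse 9179 thus went against its label. The library labelled control remote of mouse 9180 lay between the regions in these sums. Its 51179 CPM of cardiomyocyte genes was above every control infarct library, and its fibroblast sum was below the lowest control infarct sum, 22421 CPM. Counts of called genes between regions, and medians between diets, are given with and without these libraries. Region fold changes of single genes are mostly given with both kept in.

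**Figure D1:**
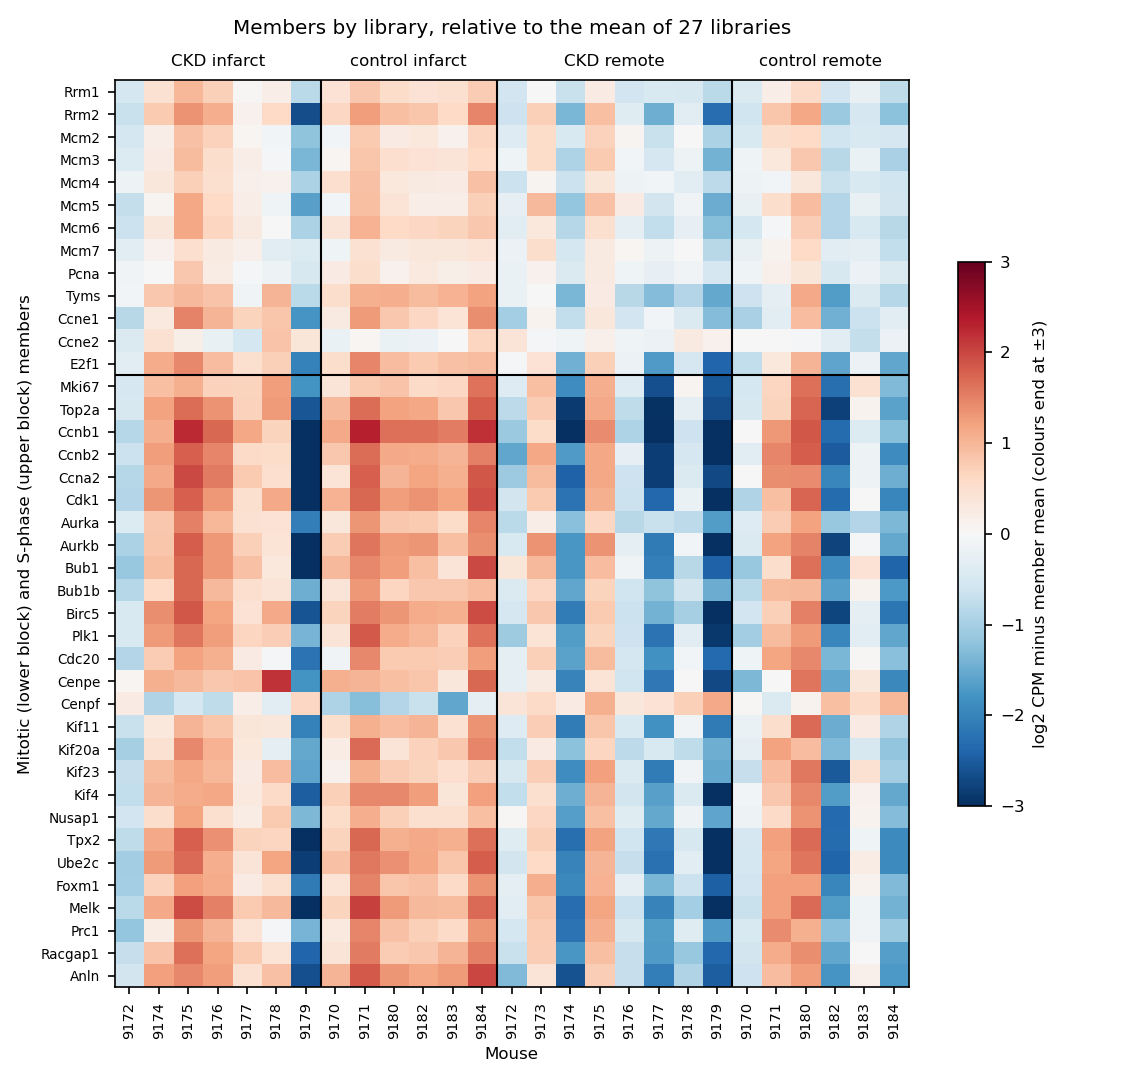
Levels of the 40 genes (rows, S-phase genes above the line, mitotic genes below it) in 27 libraries (columns, by group and mouse). Colours show log2 CPM minus the mean of that gene over all libraries, red above and blue below it, ending at ±3. Columns are mostly of a single colour apart from Cenpf and Ccne2, with mouse 9179 blue in both regions and mouse 9180 red in both.

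The first comparison set infarct tissue against remote myocardium of the same diet. Of the 40 genes 39 had positive fold changes in either diet, though few passed the test without a block. The exception was Cenpf, which encodes a large kinetochore and microtubule-binding protein and was called lower. In CKD mice, 3 of 13 S-phase genes (Rrm1, Tyms and Ccne1) and 4 of 27 mitotic genes (Aurka, Plk1, Cenpe and Anln) were called higher at an adjusted p under 0.05, and Cenpf was called lower. Of all 14770 genes tested in CKD mice, 24.7% were called higher and 20.2% lower, 45% in all. In control mice, 6 of 13 S-phase genes (Rrm1, Mcm4, Mcm6, Tyms, Ccne1 and E2f1) and 1 of 27 mitotic genes (Anln) were called higher, and Cenpf lower, against 30.7% of all genes called higher and 33.2% lower, 63.9% in all. These counts come from the quasi-likelihood test of edgeR without the mouse as a block. The median log2 fold change was 0.40 for S-phase and 1.04 for mitotic genes in CKD mice and 0.72 and 0.90 in control mice, against -0.01 over all genes tested in either diet.

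Infarct and remote tissue came from the same hearts, so the comparison was also fitted with the mouse as a block. The blocked counts were larger. With the block, 7 of 13 S-phase and 16 of 27 mitotic genes were called higher in CKD mice, where 24.5% of all genes were called higher and 24.2% lower, 48.7% in all. With the block, 11 of 13 S-phase and 17 of 27 mitotic genes were called higher in control mice, where 32.1% of all genes were called higher and 33.9% lower, 66.1% in all. Cenpf was the single gene called lower in either diet. Blocked medians were 0.42 for S-phase and 1.29 for mitotic genes in CKD mice, and 0.78 and 1.23 in control mice. Without both libraries of control mouse 9180 the blocked control medians were 0.94 and 1.59. Markers moved with the region as well: in the blocked fit 9 of 10 activated fibroblast genes and 8 of 8 macrophage genes were called higher in CKD mice, and 10 of 10 and 8 of 8 in control mice. Of 12 cardiomyocyte genes, 7 were called lower in CKD mice and 12 in control mice. Summed endothelial markers had lower medians in the infarct, 879 against 1309 CPM in CKD and 762 against 1450 CPM in control mice. The part of these cell types in the cell cycle result was not tested.

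**Figure D2:**
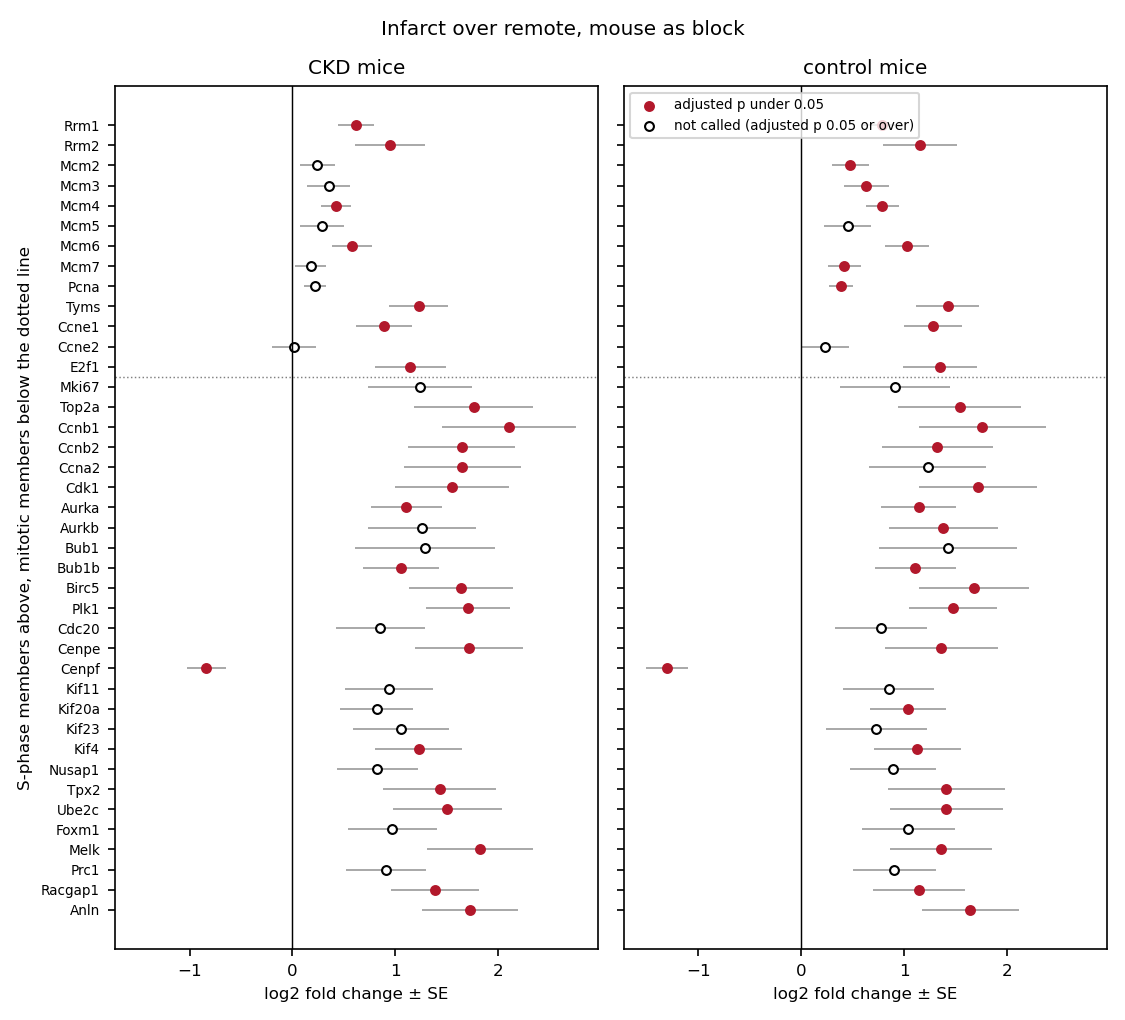
Log2 fold change of infarct over remote tissue with its standard error for 40 genes, in CKD mice (left) and control mice (right), with the mouse as a block. Filled points passed an adjusted p of 0.05, 23 higher and 1 lower in CKD mice and 28 higher and 1 lower in control mice.

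Among the S-phase genes, Tyms had the largest fold change between regions in both diets. It encodes thymidylate synthase, which makes thymidylate. In CKD mice Tyms had 4.69 CPM in the lowest, 14.5 in the median and 16.9 in the highest infarct library, against 2.77, 4.54 and 9.86 CPM in remote libraries. In control mice it had 12.0, 17.2 and 19.1 CPM in infarct libraries, against 2.51, 5.72 and 18.3 CPM in remote libraries. The ranges overlapped in both diets, in control mice through the remote library of mouse 9180 alone, since the next control remote library had 6.87 CPM. With the block the log2 fold change was 1.23 ± 0.29 (SE, adjusted p = 0.00518, edgeR) in CKD mice and 1.42 ± 0.31 (adjusted p = 0.00111) in control mice, and Tyms was higher in the infarct in 7 of 7 CKD and 5 of 6 control mice. Rrm1 and Rrm2 encode the large and small subunits of ribonucleotide reductase, which turns ribonucleotides into deoxynucleotides. Rrm2 had 0.937, 9.74 and 16.4 CPM in CKD infarct libraries, against 1.23, 4.52 and 12.1 CPM in CKD remote libraries. In control mice Rrm2 had 9.65, 11.7 and 17.7 CPM in infarct libraries, against 2.66, 4.31 and 14.2 CPM in remote libraries. Both diets had overlapping ranges. The blocked log2 fold change of Rrm2 was 0.95 ± 0.34 (adjusted p = 0.0327) in CKD mice and 1.16 ± 0.36 (adjusted p = 0.0110) in control mice, whereas without the block it did not pass in either diet (adjusted p = 0.184 and 0.116). Rrm1 was called with and without the block, with blocked values of 0.62 ± 0.17 in CKD and 0.78 ± 0.18 in control mice.

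The Mcm2 to Mcm7 genes encode the 6 subunits of the replicative helicase. Mcm6 had 10.3, 23.9 and 44.7 CPM in CKD infarct libraries, against 8.19, 16.1 and 27.9 CPM in CKD remote libraries. In control mice it had 26.3, 31.2 and 41.1 CPM in infarct libraries, against 10.7, 14.2 and 33.1 CPM in remote libraries. Without mouse 9180, whose remote library gave 33.1 CPM, the control ranges of Mcm6 did not overlap. Its blocked log2 fold change was 0.58 ± 0.20 (adjusted p = 0.0275) in CKD and 1.03 ± 0.21 (adjusted p = 8.50e-04) in control mice. Mcm4 was also called in both diets with the block, at 0.42 ± 0.15 and 0.79 ± 0.16. Mcm2, Mcm3 and Mcm7 were called in control mice alone, at 0.48 ± 0.18, 0.63 ± 0.22 and 0.42 ± 0.16, and had 0.24 ± 0.17, 0.35 ± 0.20 and 0.18 ± 0.15 in CKD mice. For none of these helicase genes was the difference between the diets called, as described under the last comparison. Mcm5 passed in neither diet (0.29 ± 0.21 and 0.45 ± 0.23). It had 3.58, 12.0 and 25.2 CPM in CKD infarct libraries, against 3.94, 9.97 and 22.1 CPM in CKD remote libraries. Mcm5 had 10.6, 13.9 and 20.9 CPM in control infarct libraries, against 6.05, 9.58 and 21.5 CPM in control remote libraries. Pcna encodes the sliding clamp of DNA polymerases. It had 36.6, 50.04 and 90.02 CPM in CKD infarct libraries, against 36.2, 45.8 and 61.9 CPM in CKD remote libraries. Pcna had 56.2, 60.7 and 73.3 CPM in control infarct libraries, against 36.9, 46.1 and 66.2 CPM in control remote libraries. The Pcna differences were small, 0.22 ± 0.11 (adjusted p = 0.101) in CKD and 0.38 ± 0.11 (adjusted p = 0.00896) in control mice with the block.

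E2f1, a transcription factor that turns on S-phase genes, and the 2 cyclin E genes, whose products start S phase with Cdk2, did not move alike. E2f1 had 1.53, 10.7 and 17.7 CPM in CKD infarct libraries, against 1.17, 5.17 and 10.8 CPM in CKD remote libraries. In control mice E2f1 had 9.35, 12.2 and 18.2 CPM in infarct libraries, against 2.12, 4.77 and 13.2 CPM in remote libraries. Its blocked log2 fold change was 1.15 ± 0.34 (adjusted p = 0.0154) in CKD and 1.34 ± 0.36 (adjusted p = 0.00463) in control mice. Ccne1 had 0.596, 3.64 and 6.504 CPM in CKD infarct libraries, against 0.862, 1.57 and 2.89 CPM in CKD remote libraries. It had 2.73, 3.75 and 6.07 CPM in control infarct libraries, against 0.772, 1.58 and 4.39 CPM in control remote libraries. The blocked fold change of Ccne1 was 0.89 ± 0.27 (adjusted p = 0.0158) in CKD and 1.28 ± 0.28 (adjusted p = 0.00134) in control mice. Ccne2 stayed near the same level everywhere, with medians of 1.47 CPM in CKD infarct, 1.22 in control infarct, 1.34 in CKD remote and 1.20 in control remote libraries. Its blocked values were 0.02 ± 0.21 (adjusted p = 0.954) and 0.24 ± 0.23 (adjusted p = 0.365), from 15 to 51 counts a library.

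Promoter windows are shown for the S-phase genes with an E2F element, since E2F factors are the regulators these genes are known for. RefSeq windows of the 250 bases before the start were given for 33 of the 40 genes (build GRCm38.p6, while the submitters' notes name GRCm39). Ccna2, Kif20a, Ccne2, Aurkb, Tpx2, Foxm1 and Mcm4 were not matched. E2F was searched as TTTCGCGC, TTTGGCGC, TTTCCCGC or TTTGCCGC on both strands, where matches on opposite strands may overlap. It was found in 3 of 11 S-phase genes (27.3%), in 1 of 22 mitotic genes (4.55%) and in 2.16% of the promoters of 27025 genes. A match is a description of the letters and not a shown binding site. The windows run 5′ to 3′ on the strand of the gene, with E2F matches on either strand in capitals. In Mcm6 and Mcm5 a capital run of 12 letters holds overlapping matches from both strands. For Mcm7, which has more than 1 window, the one with an E2F match is shown, and the other held no match.
Mcm6, chr1:128359706-128359955, minus strand: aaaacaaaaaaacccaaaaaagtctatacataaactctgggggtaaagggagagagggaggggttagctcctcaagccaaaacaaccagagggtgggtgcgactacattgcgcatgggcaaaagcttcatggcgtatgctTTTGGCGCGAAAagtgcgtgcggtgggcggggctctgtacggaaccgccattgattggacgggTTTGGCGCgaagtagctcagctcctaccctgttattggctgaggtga
Mcm7, chr5:138171884-138172133, minus strand: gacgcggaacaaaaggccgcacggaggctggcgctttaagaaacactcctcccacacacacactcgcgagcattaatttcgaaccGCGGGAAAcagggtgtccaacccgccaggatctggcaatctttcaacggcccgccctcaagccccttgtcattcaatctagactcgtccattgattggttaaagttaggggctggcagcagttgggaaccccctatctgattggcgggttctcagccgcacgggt
Mcm5, chr8:75109259-75109508, plus strand: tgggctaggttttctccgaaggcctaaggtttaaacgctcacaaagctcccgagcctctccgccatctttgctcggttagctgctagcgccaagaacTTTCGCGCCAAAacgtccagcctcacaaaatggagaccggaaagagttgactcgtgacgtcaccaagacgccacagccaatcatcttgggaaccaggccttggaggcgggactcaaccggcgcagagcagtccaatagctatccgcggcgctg

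The mitotic genes showed larger differences between regions than the S-phase genes and more spread between mice. Cdk1 is the kinase that starts mitosis, and Ccnb1 encodes cyclin B1, its partner. Cdk1 had 0.511, 14.7 and 23.5 CPM in CKD infarct libraries, against 0.4926, 4.40 and 14.1 CPM in CKD remote libraries. In control mice Cdk1 had 13.8, 16.6 and 25.95 CPM in infarct libraries, against 1.29, 5.11 and 22.5 CPM in remote libraries. The lowest CKD infarct value was that of mouse 9179 and the highest control remote value that of mouse 9180, and the regions overlapped in both diets. Its blocked log2 fold change was 1.55 ± 0.55 (adjusted p = 0.0315) in CKD and 1.72 ± 0.57 (adjusted p = 0.0165) in control mice, against adjusted p of 0.121 and 0.127 without the block. Ccnb1 had 0, 5.59 and 12.4 CPM in CKD infarct libraries, against 0.123, 1.23 and 7.01 CPM in CKD remote libraries. It had 5.79, 8.27 and 13.2 CPM in control infarct libraries, against 0.450, 2.27 and 9.51 CPM in control remote libraries. Ccnb1 gave the highest blocked value of the 40 genes in both diets, 2.10 ± 0.65 (adjusted p = 0.0175) in CKD and 1.76 ± 0.62 (adjusted p = 0.0214) in control mice.

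Mki67, whose protein coats mitotic chromosomes and is the usual marker of dividing cells, did not pass the test with all libraries. It had 1.70, 10.0 and 14.8 CPM in CKD infarct libraries, against 0.918, 4.68 and 13.2 CPM in CKD remote libraries. It had 8.08, 10.0 and 19.1 CPM in control infarct libraries, against 1.22, 6.36 and 19.5 CPM in control remote libraries. The highest of all 27 values was thus that of a remote library, from mouse 9180. The blocked fold change of Mki67 was 1.24 ± 0.51 (adjusted p = 0.0558) in CKD and 0.92 ± 0.53 (adjusted p = 0.143) in control mice. With the block Mki67 was called higher in CKD mice without mouse 9172, without mouse 9175 and without the infarct libraries of mice 9172 and 9179. It was not called without both libraries of mouse 9174, 9176, 9177, 9178 or 9179. Top2a encodes topoisomerase II alpha, which untangles sister chromatids. It had 1.53, 21.8 and 30.5 CPM in CKD infarct libraries, against 1.13, 5.504 and 20.8 CPM in CKD remote libraries. In control mice Top2a had 16.7, 21.5 and 33.7 CPM in infarct libraries, against 1.29, 8.49 and 31.6 CPM in remote libraries. It was called with the block alone, at 1.76 ± 0.58 (adjusted p = 0.0224) in CKD and 1.54 ± 0.60 (adjusted p = 0.0354) in control mice.

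**Figure D3:**
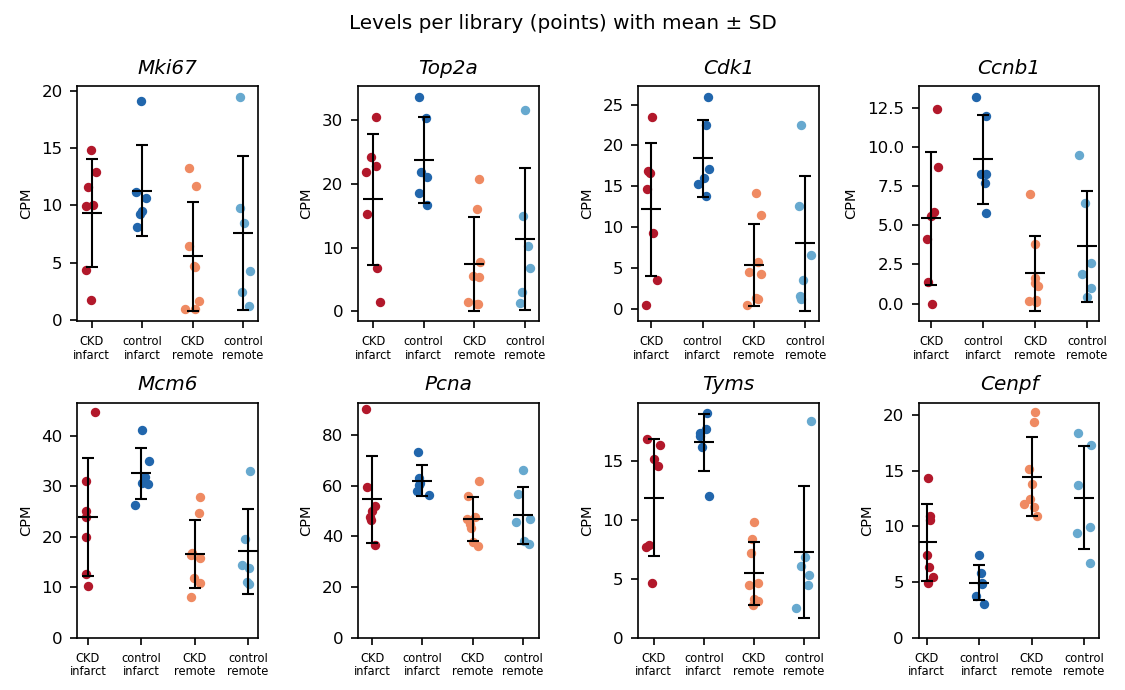
CPM per library (points) of 8 genes in 4 groups, with the mean and SD as bars. The control remote library of mouse 9180 is the highest point of its group in every panel but that of Cenpf, and Cenpf alone is higher in remote than in infarct tissue.

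Plk1 and Anln had the smallest p-values of the mitotic genes that were higher in the infarct with the block. Plk1, polo-like kinase 1, had 1.36, 6.26 and 11.6 CPM in CKD infarct libraries, against 0.431, 2.07 and 5.99 CPM in CKD remote libraries. It had 4.92, 7.87 and 13.7 CPM in control infarct libraries, against 0.901, 2.38 and 9.27 CPM in control remote libraries. Plk1 was higher in the infarct in 7 of 7 CKD and 5 of 6 control mice, at a blocked 1.71 ± 0.41 (adjusted p = 0.00545) and 1.48 ± 0.42 (adjusted p = 0.00717). Anln encodes anillin, a scaffold of the contractile ring. It had 0.596, 7.71 and 11.5 CPM in CKD infarct libraries, against 0.611, 1.91 and 7.05 CPM in CKD remote libraries. It had 8.47, 10.4 and 17.1 CPM in control infarct libraries, against 1.16, 3.66 and 9.98 CPM in control remote libraries. Anln was the single mitotic gene called higher in both diets without the block, at 1.38 ± 0.53 (adjusted p = 0.0353) in CKD and 1.35 ± 0.58 (adjusted p = 0.0434) in control mice. Cenpe, a kinetochore motor, had 3.14 CPM in the median CKD infarct and 1.24 CPM in the median CKD remote library, with a blocked value of 1.72 ± 0.52 (adjusted p = 0.0166). Birc5, survivin of the chromosomal passenger complex, had a blocked value of 1.64 ± 0.50 (adjusted p = 0.0172) in CKD and 1.68 ± 0.53 (adjusted p = 0.0127) in control mice. The genes that passed in neither diet with the block were Mki67, Bub1 (a checkpoint kinase), Cdc20 (an activator of the anaphase-promoting complex), Kif11 and Kif23 (mitotic motors), Nusap1, Foxm1 (a transcription factor of mitotic genes) and Prc1, with blocked values of 0.73 to 1.43. All 8 were called higher in CKD mice with the block once the infarct libraries of mice 9172 and 9179 were left out, and 6 of the 8, all but Mki67 and Kif23, in control mice without the remote library of mouse 9180. Bub1 rested on 0 to 83 counts a library.

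Cenpf went the other way in every mouse. In CKD mice it had 4.91, 7.42 and 14.3 CPM in infarct libraries, against 10.9, 13.1 and 20.3 CPM in remote libraries. In control mice it had 3.08, 4.88 and 7.48 CPM in infarct libraries, against 6.76, 11.9 and 18.4 CPM in remote libraries. Cenpf was lower in the infarct in 13 of 13 mice, and the ranges overlapped in both diets. The log2 fold change was -0.77 ± 0.25 (adjusted p = 0.0149) in CKD and -1.34 ± 0.28 (adjusted p = 2.26e-04) in control mice without the block, and -0.84 ± 0.19 (adjusted p = 0.00418) and -1.31 ± 0.20 (adjusted p = 1.54e-04) with it. Its highest CKD infarct value was that of mouse 9179, the library with the lowest value for 38 of the 40 genes in its group.

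Promoter windows of mitotic genes are shown for 4 that hold both a CHR element and a CCAAT box, the pair by which mitotic promoters are known. CHR was searched as TTTGAA or TTCGAA and the box as CCAAT, each on both strands. TTCGAA reads the same on both strands and is therefore found on each. Genes were counted once, as holding a match if any of their windows held it. Of the mitotic genes 9 of 22 (40.9%) held CHR and 18 of 22 (81.8%) held CCAAT. Among S-phase genes these shares were 18.2% and 72.7%, and over the promoters of all 27025 genes 19.6% and 37.5%. Both elements stood together in a window in 40.9% of mitotic, 18.2% of S-phase and 7.0% of all genes. Capitals mark CHR and CCAAT matches on either strand, so that ATTGG and TTCAAA are matches on the opposite strand. E2F matches are not marked in these windows, and the Cdk1 window holds 1. In the S-phase windows above, CHR and CCAAT matches are not marked. The Mcm7 window shown holds 2 matches of each, and those of Mcm6 and Mcm5 hold 2 CCAAT matches each.
Cdk1, chr10:69352913-69353162, minus strand: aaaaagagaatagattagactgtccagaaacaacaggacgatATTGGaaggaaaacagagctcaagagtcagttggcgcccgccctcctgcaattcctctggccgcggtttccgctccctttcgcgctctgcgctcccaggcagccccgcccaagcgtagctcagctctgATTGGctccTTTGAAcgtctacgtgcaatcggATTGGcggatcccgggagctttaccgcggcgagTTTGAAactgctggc
Bub1b, chr2:118597961-118598210, plus strand: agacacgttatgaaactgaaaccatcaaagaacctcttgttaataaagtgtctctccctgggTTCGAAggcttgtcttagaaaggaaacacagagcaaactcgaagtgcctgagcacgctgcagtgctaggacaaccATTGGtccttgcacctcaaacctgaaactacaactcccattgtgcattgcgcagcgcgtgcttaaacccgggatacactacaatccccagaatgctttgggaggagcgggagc
Top2a, chr11:99024190-99024439, minus strand: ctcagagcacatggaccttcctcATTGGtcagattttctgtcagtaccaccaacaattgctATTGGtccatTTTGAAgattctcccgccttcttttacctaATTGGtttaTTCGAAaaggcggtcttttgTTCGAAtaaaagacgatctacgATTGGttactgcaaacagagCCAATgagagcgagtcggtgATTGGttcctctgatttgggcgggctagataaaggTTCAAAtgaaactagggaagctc
Ube2c, chr2:164769679-164769928, plus strand: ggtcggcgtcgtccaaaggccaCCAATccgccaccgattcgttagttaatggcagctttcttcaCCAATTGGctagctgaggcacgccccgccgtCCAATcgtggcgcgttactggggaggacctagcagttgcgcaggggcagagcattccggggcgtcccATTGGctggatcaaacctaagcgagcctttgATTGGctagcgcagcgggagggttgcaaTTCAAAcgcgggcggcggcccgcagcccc

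The region difference varied widely between mice. The mean log2 CPM of the 27 mitotic genes was -0.37 to 3.45 in CKD infarct, 2.53 to 3.47 in control infarct, -0.52 to 2.96 in CKD remote and 0.11 to 3.41 in control remote libraries. The remote libraries of mice 9180 (3.41), 9175 (2.96), 9171 (2.90) and 9173 (2.69) lay within the control infarct range. Inside a mouse, 35 to 39 of the 40 genes were higher in the infarct in 10 of the 13 mice. In CKD mouse 9172 it was 14 of 40 and in CKD mouse 9179 it was 24 of 40, with median differences of the mitotic genes of -0.23 and 0.11. In control mouse 9180 it was 2 of 40, with a median of -0.43. The largest medians were 3.10 in control mouse 9184, 2.83 in control mouse 9182, 2.76 in CKD mouse 9174 and 2.52 in CKD mouse 9177. Those 4 mice had the 4 lowest mitotic remote values after that of mouse 9179. The difference is infarct minus remote, so a low remote value itself raises it.

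**Figure D4:**
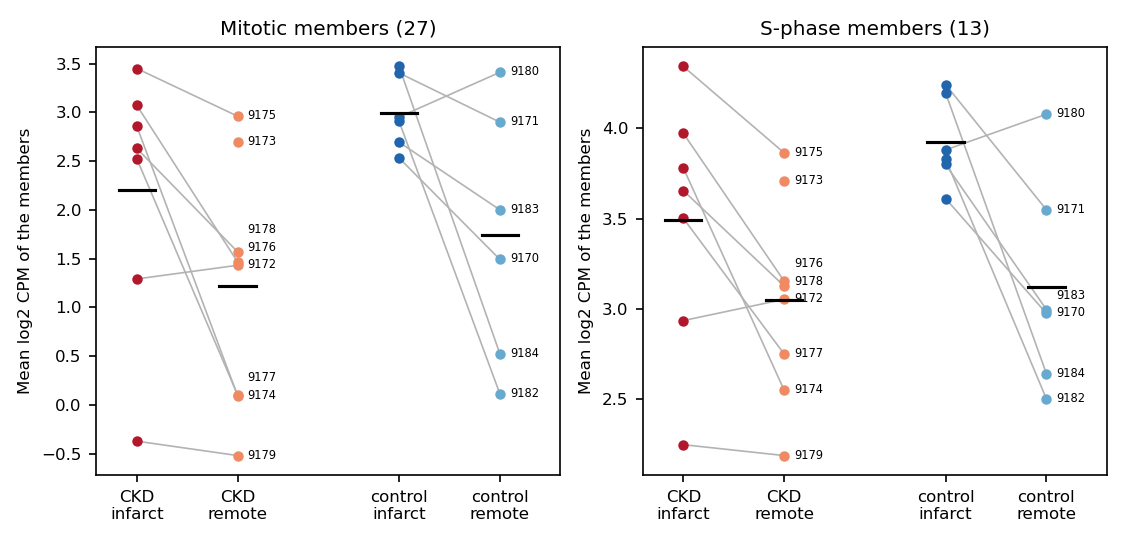
Mean log2 CPM of the mitotic genes (left) and of the S-phase genes (right) in each library, with lines joining the infarct and remote library of a mouse and short bars at group means. Most lines fall to the right, those of control mouse 9180 and CKD mouse 9172 rise, and mouse 9173 gave a remote library only.

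The counts changed when single libraries were left out. Mice 9172, 9179 and 9180 had the fewest genes higher in the infarct. Leaving out the infarct libraries of mice 9172 and 9179, or the remote library of mouse 9180, therefore favours higher counts. Without the remote library of control mouse 9180, 10 S-phase and 9 mitotic genes were called higher in control mice without the block (32% of all genes), and 12 and 24 with it (32.4%). Without the infarct library of CKD mouse 9179 the unblocked counts in CKD mice were 6 S-phase and 13 mitotic genes (29.9% of all genes higher), and without both libraries of this mouse the blocked counts were 7 and 17 (29.1%). CKD mouse 9172 had 14 of the 40 genes higher in the infarct, and its infarct library had 5172 CPM of the activated fibroblast genes, the lowest of its group after that of mouse 9179. That sum was still above the highest CKD remote library, 1418 CPM. Leaving out the infarct library of mouse 9172 alone gave 3 S-phase and 6 mitotic genes without the block (26.2% of all genes). With the infarct libraries of mice 9172 and 9179 (CKD) both left out, 8 S-phase and 17 mitotic genes were called higher in CKD mice without the block (31.5%), and 7 and 26 with it (29.5%). Without the remote library of mouse 9179, the one with conflicting labels, the unblocked counts in CKD mice were 2 S-phase genes and 1 mitotic gene (23.7%). The blocked counts also depended on single mice. Leaving out both libraries of a mouse gave 20 or fewer genes called higher in CKD mice without 9174 (6), 9176 (10), 9177 (11), 9178 (16) or 9175 (20). In control mice this was so without 9182 (12), 9184 (12) or 9170 (19). In these blocked fits without 1 mouse, 18.6% to 29.1% of all genes were called higher in CKD mice and 28.9% to 32.4% in control mice. Cenpf was called lower in each of these fits.

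The second comparison asked whether CKD changed these genes in infarct tissue. The data show lower values with CKD for 38 of 40 genes, and none was called. Of all 14358 genes tested, 13.1% were called higher and 7.14% lower in CKD infarct tissue. No gene of the whole table was called by edgeR without the infarct library of CKD mouse 9172 or 9177 or of control mouse 9171, 9182 or 9183, without those of CKD mice 9172 and 9179 together, or with a cardiomyocyte covariate. The median log2 fold change was -0.34 for the S-phase genes and -0.46 for the mitotic genes, against -0.02 over all genes tested. Cenpf was the 1 gene with an unadjusted p under 0.05, and its values were higher with CKD, at 4.91, 7.42 and 14.3 CPM in CKD against 3.08, 4.88 and 7.48 CPM in control libraries (0.74 ± 0.28, adjusted p = 0.0666). By DESeq2, in the fit of all 27 libraries, and without the infarct library of CKD mouse 9174, CKD mouse 9175 or control mouse 9184, Cenpf was called higher. In the same order, these fits called 19.5%, 22.8%, 14%, 18.4% and 9.85% of all genes higher. Among the other mitotic genes Anln (-0.79 ± 0.44, adjusted p = 0.192), Kif11 (-0.67 ± 0.36, adjusted p = 0.174) and Prc1 (-0.62 ± 0.39, adjusted p = 0.243) had the smallest p-values. Among the S-phase genes these were Tyms (-0.50 ± 0.27, adjusted p = 0.171), Mcm7 (-0.28 ± 0.16, adjusted p = 0.198) and Mcm4 (-0.39 ± 0.22, adjusted p = 0.203). Mki67 (-0.29 ± 0.38), Cdk1 (-0.62 ± 0.51) and Pcna (-0.21 ± 0.17) had standard errors of the same order as their fold changes. Without the infarct library of CKD mouse 9175, the highest for 34 of the 40 genes in its group, Mcm6 and Pcna were called lower, in a fit that called 14.2% of all genes lower and 18.4% higher.

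The size of the CKD medians in infarct tissue varied with single libraries and in a fit with a cardiomyocyte covariate. Without CKD mouse 9179 the medians were -0.21 for S-phase and -0.27 for mitotic genes, and without CKD mouse 9172 they were -0.23 and -0.32. Without both mice they were -0.13 and -0.11. Without CKD mouse 9175 they were farther from 0, at -0.53 and -0.75. All 12 cardiomyocyte genes were higher with CKD, 5 of them called, and all 10 activated fibroblast genes were lower, 3 of them called. Once the cardiomyocyte score entered as a covariate, medians were 0.07 for both lists, and 27 of 40 genes were positive. That score ran from 10.72 to 12.49 in CKD infarct and from 7.82 to 10.82 in control infarct libraries. The score thus nearly separated the diets, and this fit cannot tell a diet effect from one of tissue makeup. The part of tissue makeup in the difference was not tested.

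In remote myocardium 0 of 40 genes were called between CKD and control mice, and 0 had an unadjusted p under 0.05. Over all 13902 genes tested by edgeR 0.0216% were called lower and 0 higher, while 1626 had an unadjusted p under 0.05 and DESeq2 called 97. With CKD, 37 of 40 genes had lower values, with a median of -0.06 for the S-phase and -0.62 for the mitotic genes, against -0.0049 over all genes. Mki67 (-0.49 ± 0.63), Cdk1 (-0.60 ± 0.69) and Anln (-0.83 ± 0.59) had wide errors, while Pcna (-0.05 ± 0.14) and Mcm7 (0.03 ± 0.21) were closer to 0. Single libraries moved these medians. Without the remote library of CKD mouse 9175 they were -0.21 and -0.92. Without the remote library of control mouse 9180, the median was 0.21 for S-phase and -0.11 for mitotic genes, with 21 of 40 genes positive. When a cardiomyocyte score was added as covariate in remote tissue, the medians were 0.35 and 0.23, and 37 of 40 genes were positive, none of them called. All 10 activated fibroblast genes were also lower with CKD in remote tissue and none was called, and their part was not tested. With mouse 9179 moved to the control group, following its treatment label, 29 of 40 genes were negative and none was called.

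**Figure D5:**
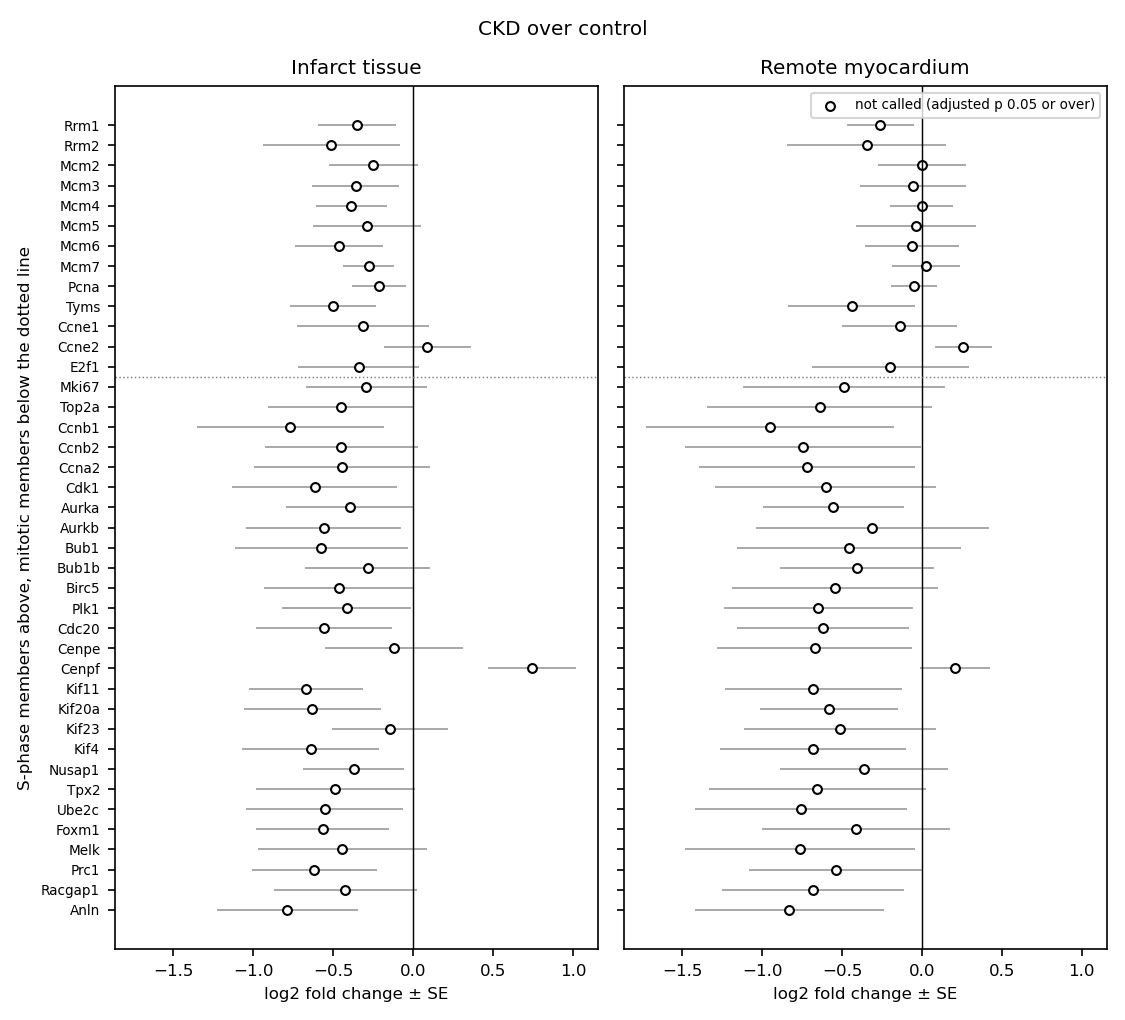
Log2 fold change of CKD over control with its standard error for 40 genes, in infarct tissue (left) and remote myocardium (right). No gene passed an adjusted p of 0.05, and Cenpf in infarct tissue lies farthest to the right.

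The last comparison set the CKD effect in infarct tissue against that in remote myocardium. No member was called, and by edgeR 0 of all 14770 genes were, with 2787 at an unadjusted p under 0.05 and 10 called by DESeq2. With the mouse as a block the counts were also 0 of 40 and 0 of 14770. The median difference was -0.18 for S-phase and 0.15 for mitotic genes, against 0.06 over all genes. Mcm4 (-0.38 ± 0.29, adjusted p = 0.517), Cenpf (0.57 ± 0.37, adjusted p = 0.425) and Aurkb (-0.26 ± 0.93, adjusted p = 0.915) had the smallest p-values of their list and direction. Without the remote library of control mouse 9180 the medians were -0.51 and -0.29, and with the infarct libraries of mice 9172 and 9179 (CKD) left out they were 0.01 and 0.49. Leaving out the infarct library of CKD mouse 9179 alone gave -0.09 and 0.35. The regions and diets share libraries across these comparisons, so their values are set side by side and not correlated.

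The spread between mice of a group was larger for mitotic genes than for most genes. The median SD of log2 CPM over the 27 mitotic genes was 1.33 in CKD infarct, 0.43 in control infarct, 1.28 in CKD remote and 1.36 in control remote libraries. Over all 14770 genes it was 0.39, 0.25, 0.23 and 0.31 in the same groups, and over the 13 S-phase genes 0.71, 0.29, 0.58 and 0.60. These values include the infarct library of mouse 9179 and the remote library of mouse 9180, and were not recomputed without them. The lists were not matched to all genes by level, and genes with few counts vary more. The extremes came from few mice. Mouse 9175 was highest for 34 of 40 genes in CKD infarct and for 32 in CKD remote tissue, and mouse 9179 lowest for 38 and 30. Among control mice, 9180 was highest for 35 genes and 9182 lowest for 29 in remote tissue, and in infarct tissue 9171 was highest for 23 and 9170 lowest for 28.

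Further genes of the pathway were counted by list. The blocked region counts of these lists stand beside 24.5% of all genes called higher and 24.2% lower in CKD mice, and 32.1% and 33.9% in control mice. Of 16 further kinetochore and spindle genes, 9 were called higher and 2 lower in the infarct of CKD mice with the block, and 10 and 2 in control mice. Without the block the counts were 3 and 2 in CKD mice and 1 and 2 in control mice. Hmmr, a spindle protein, was at 2.29 ± 0.52 (adjusted p = 0.00464) in CKD mice, and Mad2l1, a checkpoint protein, at 0.72 ± 0.26 and 0.99 ± 0.27 in CKD and control mice. The genes called lower were Pttg1 (securin, which holds back the separation of chromatids), at -0.83 ± 0.19 and -1.47 ± 0.21, and Cenpa, the centromeric histone, at -0.34 ± 0.12 and -0.89 ± 0.13. Of 16 licensing and replisome genes, 2 were called higher and 2 lower in CKD mice with the block, and 6 and 2 in control mice. Gins2 of the helicase complex was higher (1.25 ± 0.35 and 1.40 ± 0.36). Gmnn, geminin, the inhibitor of licensing, was lower (-0.78 ± 0.19 and -1.63 ± 0.21). Gmnn, Pttg1 and Cenpa were called higher in CKD than in control infarct tissue, at 1.06 ± 0.29 (adjusted p = 0.0345), 0.92 ± 0.28 (adjusted p = 0.0386) and 0.44 ± 0.15 (adjusted p = 0.0494). These calls between the diets are lost under each of the settings, named above, in which no gene of the table was called.

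Genes that act before S phase were counted next. Of 6 G1 cyclins and kinases, Ccnd1 was lower in the infarct with the block (-0.84 ± 0.19, adjusted p = 0.00466, in CKD and -1.14 ± 0.21, adjusted p = 3.51e-04, in control mice). Ccnd2 was called lower in control mice (-0.41 ± 0.13) and Ccnd3 in neither diet. The cyclin D partners Cdk6 (0.91 ± 0.19 and 1.11 ± 0.20) and Cdk4 (0.28 ± 0.11 and 0.60 ± 0.12) were higher, and Cdk2 was called in control mice alone (0.39 ± 0.11). Of 7 inhibitors of these kinases, Cdkn2b (1.92 ± 0.37 and 2.72 ± 0.38), Cdkn2a (1.21 ± 0.34 and 1.59 ± 0.34) and Cdkn1a (0.75 ± 0.24 and 0.84 ± 0.27) were higher in the infarct of CKD and control mice. Cdkn1c was lower (-0.78 ± 0.20 and -0.94 ± 0.21), Cdkn1b was higher in control mice (0.44 ± 0.13), and Cdkn2c and Cdkn2d were not called. Between CKD and control infarct tissue Cdk4 (-0.43 ± 0.13, adjusted p = 0.0426) and Cdkn1b (-0.40 ± 0.11, adjusted p = 0.0345) were called lower and Cdkn2d (0.34 ± 0.11, adjusted p = 0.0410) higher, calls that are lost under the same settings.

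Of 17 genes of E2F, RB and the MuvB complex that binds CHR elements, 4 were called higher and 3 lower in the infarct of CKD mice with the block, and 7 and 5 in control mice. E2f2 (1.18 ± 0.39 and 1.57 ± 0.41) and E2f3 (0.51 ± 0.19 and 0.65 ± 0.20) were higher, like E2f1. E2f6, a repressor of the family, was lower (-0.59 ± 0.19 and -1.30 ± 0.21) and was higher in CKD than in control infarct tissue (0.90 ± 0.21, adjusted p = 0.0345). Tfdp2, a partner of E2F proteins, was also lower in the infarct and higher in CKD than in control infarct tissue, at -0.62 ± 0.15 and -0.995 ± 0.166 between regions and 0.60 ± 0.20 (adjusted p = 0.0467) between diets in infarct tissue. Both calls between the diets are lost under those settings too. Of 10 further genes of nucleotide supply, 2 were called higher and 4 lower in either diet, with Dck, deoxycytidine kinase, at 0.68 ± 0.24 and 1.34 ± 0.26 and Rrm2b, the ribonucleotide reductase subunit used outside S phase, at -0.50 ± 0.17 and -0.93 ± 0.18. Of 9 checkpoint and entry genes, 2 were called higher in CKD mice (Chek2 and Cdc25c) and 1 in control mice (Cdc25b), and none lower. In remote myocardium none of these further genes was called between the diets.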

How the data were processed

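RNA of 27 libraries from 14 mouse hearts was sequenced. The authors deposited whole-number counts per gene, the unit being taken from the values. The tool kallisto 0.48.0 and the build GRCm39 are named in the submitters' processing notes. The annotation, any rounding and any filter are not given in the sources used here. As kallisto assigns reads among similar transcripts, counts of closely related genes are uncertain. Groups were taken from titles and labels, and the replicate number is the mouse. The members were given as a list of symbols, and the gene lists were written with earlier results of these data known.

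Genes were kept by filterByExpr and libraries scaled by TMM (factors 0.805 to 1.35). Fits used R 4.3.3 and edgeR 4.0.16 with its quasi-likelihood F test. Calls are at an adjusted p (Benjamini-Hochberg, all genes tested) under 0.05. Diets were compared inside each region, while the other comparisons used all 27 libraries with 4 group means. The standard error is the size of the fold change over the square root of F. Log2 CPM used a prior count of 2. Library totals of 14255456 to 42566498 counts set the precision, which is poorest for genes with few counts. Of all pairs of a group none was a duplicate, with a lowest chi-square per degree of freedom of 9.03 over 79 pairs. That libraries came from separate animals is given by the mouse numbers.

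Region pairs are from the same mouse, so the pairing comes from the design. After removal of group means, correlations within the 13 mice were -0.10 to 0.40 (median 0.17), and the median between different mice was -0.02. Alternatives were other scalings, no filter, DESeq2 1.42.0, the mouse as a block, a fit of all libraries, a cardiomyocyte covariate and leaving out libraries. Block fits without single mice or libraries, and fits between regions without single CKD infarct libraries, were added after seeing the data.

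Any of the 40 genes could be named. Values by library were planned for 12 of them and for the 3 with the smallest p in each list, direction and comparison. Of the other lists up to 3 genes with the smallest p, all CDK inhibitors and all G1 cyclins were to be named. Hmmr, Mad2l1, Gins2, E2f2, E2f3, Dck, Rrm2b and the called checkpoint genes were chosen after their values were seen. Promoter motifs were searched in RefSeq windows of GRCm38.p6.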

Additional observations from a re-analysis of the deposited data

Results flagged for a closer look

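Of 68 sets of values, each a gene or list mean in a group, 4 held a library far from the others, and chance gives about 1 in 20. In control infarct tissue mouse 9184 was highest for Mki67, at 4.26 log2 CPM with the next at 3.49, and for Ccne2, at 1.13 with the next at 0.53. In the same group mouse 9170 was lowest for Tyms, at 3.598 log2 CPM with the next at 4.02. In CKD infarct tissue mouse 9179 was lowest for Ccnb1, at -3.50 log2 CPM from 0 counts, with the next at 0.56. No difference between groups of the CKD effect was called for any of the 40 genes.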

How the results depend on the processing

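Each result was recomputed under the alternatives. Of the alternative values, 880 for single genes kept their direction and their side of the threshold, 114 moved past it, 8 fell short of it, and 29, from 15 results of single genes, turned sign. Of the counts of called genes 291 stayed within 1.5 times, 39 were higher and 2 lower. Counts of 0 in both fits are among the 291. Between the diets, and for the difference of the CKD effect, every count of the main fit was 0. The tally therefore says little on the counts of genes called higher between regions, which moved as given below. All 166 medians moved by less than the replicate SD, and 11 of them turned sign. That SD is the spread of a list mean between mice, for mitotic genes 1.25 in CKD remote and 1.29 in control remote libraries. It is wide enough to hold remote mitotic medians of -0.92 to -0.11 when 1 library was left out, so this is a weak check. Where a cause is not given, the cause was not tested. Few counts limit Bub1 and Ccne2.

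The pairing by mouse moved the region counts. With the mouse as a block 7 S-phase and 16 mitotic genes were called higher in CKD mice and 11 and 17 in control mice, and the block changed no call on the difference of the CKD effect between regions. With the block and without the infarct libraries of mice 9172 and 9179 the CKD counts were 7 and 26, and without the block 8 and 17. With the block and without the remote library of mouse 9180 the control counts were 12 and 24. Leaving out 1 mouse at a time with the block gave 3 to 7 S-phase and 3 to 26 mitotic genes in CKD mice and 8 to 12 and 4 to 24 in control mice. The CKD counts were 6 and 26 without mouse 9172, 5 and 15 without 9175, 5 and 6 without 9177 and 5 and 11 without 9178, and the control counts 11 and 18 without mouse 9171. Without the block, dropping the infarct library of CKD mouse 9179 gave 6 and 13, dropping the remote library of mouse 9179 gave 2 and 1 in CKD mice, and dropping that of mouse 9180 gave 10 and 9 in control mice. Leaving out 1 mouse with the block gave Ccne2 values of -0.085 to 0.18 in CKD mice, with -0.082 without mouse 9178, and Mcm5 in CKD mice was -0.014 without the remote and 0.29 without the infarct library of mouse 9179, and 0.13 to 0.44 with the block. With no filter on low counts 0 mitotic genes were called higher in control mice, where 21.4% of all 21658 genes tested were called higher.

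Between CKD and control infarct tissue the number of genes called in the whole table was 2908, and 0 without the infarct library of mouse 9171, 9172, 9177, 9182 or 9183, with the cardiomyocyte covariate, and without those of 9172 and 9179. In this comparison 1 mitotic gene was called higher by DESeq2 (19.5% of all genes) and 1 in the fit of all 27 libraries (22.8%). Leaving out 1 library at a time gave 0 to 1 mitotic genes higher and 0 to 2 S-phase genes lower. Ccne2 values were then -0.084 to 0.26, and those fits called 0 to 18.4% of all genes higher and 0 to 14.2% lower. With the cardiomyocyte covariate Pcna was 0.067 in infarct tissue, and in remote tissue Mki67 was 0.50, Cdk1 0.52, Pcna 0.17, Rrm1 0.12, Tyms 0.34, Rrm2 0.35 and Aurka 0.17. Without the infarct libraries of mice 9172 and 9179 Mki67 was 0.020 in infarct tissue, and the Aurkb difference between regions was 0.16, or 0.18 with the block. With mouse 9179 as control in remote tissue Pcna was 0.044 and Cenpf -0.0037. Leaving out 1 remote library at a time gave Mcm7 -0.078 to 0.23, Pcna -0.12 to 0.072, Mki67 -0.82 to 0.068, Cdk1 -0.99 to 0.049, Tyms -0.62 to 0.11 and Rrm2 -0.64 to 0.039.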
